A study of Mus musculus with 13 samples.

Results

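Respiratory complex I was followed through 45 of 11761 listed genes, namely every gene whose symbol starts with Nduf. They comprised 36 subunit genes, 7 assembly factor genes (symbols starting with Ndufaf) and 2 genes that carry the prefix but encode no complex I subunit, Ndufa4 and Ndufa4l2. The genes were chosen by symbol and not by their values. The 6 RNA libraries came from epididymal white adipose tissue of Adipoq-NuTRAP mice on a C57BL/6J background, 3 from mice given chow and 3 from mice given a high-fat diet (HFD), each for 10 weeks. Both diets therefore share the transgenes: the Adipoq promoter directs a GFP-tagged ribosomal protein to adipocytes. The tagged ribosomes were precipitated from tissue homogenate, so that the values describe ribosome-bound RNA and not protein. The age of the mice and the make-up of the HFD are not stated, nor is it stated that libraries of 1 diet came from different mice, and p-values thus measure the spread between libraries only.

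Complex I is the entry point of the respiratory chain: it takes electrons from NADH, passes them along a flavin and iron-sulphur clusters to ubiquinone, and pumps protons out of the mitochondrial matrix. The enzyme is L-shaped and is built from preassembled modules. The N module oxidises NADH, the Q module hands the electrons to ubiquinone, and the membrane arm (the ND1, ND2, ND4 and ND5 modules, each named for a mitochondrially encoded subunit) moves the protons. The 7 nuclear core subunits, all in the N and Q modules, have counterparts in bacteria, whereas the accessory subunits do not take part in electron transfer. White adipocytes depend on the chain for the energy used in storing and releasing lipid. Of 37 nuclear subunit genes on the module lists, 36 were in the table. Ndufb1, Ndufaf8 and the mitochondrially encoded subunits were not analysed here.

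Sequences around the gene starts are shown first, because several subunit genes carry a short motif near the start of the transcript. RefSeq windows on GRCm38.p6, running from 250 bases before to 50 bases after an annotated start, were found for 32 of the 36 subunits. The letters AAGATGG, a core of the motif bound by the transcription factor YY1, were searched on both strands. They occurred in 7 of 32 subunits (21.9%), in 8.53% of the 8643 tested genes with a window and in 7.28% of all 27025 genes with one. In all 7 subunits the match read in the direction of the transcript, its first base at positions 23 to 39 of the transcript. Among tested genes 332 of 835 matches lay after the start, 270 of these in the direction of the transcript. RNA of Ndufs7, Ndufb8 and Ndufa9 fell in HFD (Ndufa9 narrowly, and not in most alternative settings), and that of Ndufs4, Ndufs6, Ndufa3 and Ndufc1 did not pass the test. The 30 bases around each match are written 5′ to 3′ along the transcript, with the match in capitals.
Ndufs7, chr10:80249462-80249491, plus strand: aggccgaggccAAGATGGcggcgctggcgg
Ndufb8, chr19:44555393-44555422, minus strand: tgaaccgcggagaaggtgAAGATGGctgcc
Ndufa9, chr6:126849097-126849126, minus strand: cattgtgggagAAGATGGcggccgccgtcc
Ndufs4, chr13:114388045-114388074, minus strand: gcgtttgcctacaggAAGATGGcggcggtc
Ndufs6, chr13:73328433-73328462, minus strand: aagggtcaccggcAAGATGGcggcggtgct
Ndufa3, chr7:3617384-3617413, plus strand: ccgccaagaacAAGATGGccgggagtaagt
Ndufc1, chr3:51408915-51408944, minus strand: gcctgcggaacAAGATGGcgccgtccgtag

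The cAMP response element TGACGTCA, which reads the same on both strands, was present in Ndufa10, Ndufa11 and Ndufb2, 3 of 32 subunits (9.38%), against 3.69% of tested genes and 2.03% of all genes. None of these 3 genes passed the test between diets. Its first base lay 67, 158 and 14 bases before the start, respectively. The 60 bases around each element are given with the element in capitals, since these are the only subunit windows that hold it.
Ndufa10, chr1:92473792-92473851, minus strand: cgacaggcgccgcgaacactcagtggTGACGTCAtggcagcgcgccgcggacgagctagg
Ndufa11, chr17:56717578-56717637, plus strand: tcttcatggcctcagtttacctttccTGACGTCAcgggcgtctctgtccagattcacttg
Ndufb2, chr6:39592525-39592584, plus strand: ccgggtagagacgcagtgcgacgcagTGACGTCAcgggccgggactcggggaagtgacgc

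Other motifs of factors linked to mitochondrial genes were searched on both strands in the same windows. CCGGAAG, an ETS core that the factor GABP can bind, was present in 4 of 32 subunits (12.5%) and in 20.1% of tested genes. GCGCATG, a core of the NRF1 motif, was present in 5 of 32 subunits (15.6%) and in 8.25% of tested genes. A longer form of this core, which reads the same on both strands, was present in 1 of 32 subunits (3.12%) and in 2.53% of tested genes. AAGGTCA, a core of the motif of estrogen-related receptors, was present in 3 of 32 subunits (9.38%) and in 3.77% of tested genes. None of these 3 subunits was among the 10 fallen subunits with a window. A longer form of the receptor motif was present in 0 of 32 subunits and in 0.278% of tested genes. The GC box GGGCGG was present in 15 of 32 subunits (46.9%) and in 69.7% of tested genes. These are matches of letters and do not show binding.

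Of the 6 libraries, chow replicate 3 stood apart. It was the shallowest, with an effective size of 7430000 reads against 23200000 to 39400000 in the other 5. These sizes were recovered from steps between low values, of which 74.5% of those at 1 to 8 reads were even, and whether the mates of a fragment were counted apart is not known, so a read may not be an independent fragment. The library's level of ribosomal RNA (Rn45s) was the highest, at 23170 CPM against 4068 to 12503 CPM, where CPM is a read count scaled to the effective library size. In chow replicate 3 the listed values summed to 1182123 CPM, against 984422 to 1030469 CPM in the other 5. The effective size of this library is thus not its read total. Its median subunit stood 0.47 above the mean of the other chow libraries on the log2 scale, against 0.37 for 67 cytosolic ribosomal protein genes and -0.015 for all tested genes. It was the highest chow library for 31 of 36 subunits (86.1%, against 38.8% of tested genes), and at least 1.5 times the other chow libraries for 10 of them. Among the HFD libraries, replicate 2 was the highest for 33 of 36 subunits (91.7%, against 34.6% of tested genes). Neither trait was particular to complex I. Chow replicate 3 was the highest chow library for 86.7% of 30 genes of complexes III, IV and V. For 66 mitochondrial ribosomal protein genes that share was 57.6%, and for 26 adipocyte identity genes 73.1%. The shares with HFD replicate 2 highest were 86.7%, 87.9% and 38.5%, respectively.

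RNA for complex I subunits was lower in HFD for 14 of 36 genes, higher for 0, and did not pass the test for 22. A gene was called at an adjusted p under 0.05 in limma's test with Benjamini-Hochberg adjustment over all 11643 tested genes, of which 16.0% were lower and 19.1% higher (35.1% in either direction). The lower share among subunits was thus 38.9% beside 16.0%. The 14 called genes were also the 14 whose HFD libraries all lay below all chow libraries (38.9%). Among tested genes 25.0% lay entirely below, 25.2% entirely above and 50.2% in either direction. At an unadjusted p under 0.05 in the same test the count was 16 lower and 0 higher. The share of all tested genes at that threshold was not computed, so this count has no background beside it.

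The log2 fold change, HFD minus chow on the log2(CPM + 1) scale, had a median of -0.40 over the subunits and -0.00 over all tested genes, and was below 0 for 32 of 36 subunits. This direction depended on the scaling between libraries: the median was -0.29 with equal library totals and -0.36 after quantile normalization, but 0.02 when the typical gene of adipocyte identity was held level. Under that last scaling the median of all genes was 0.39, so that the subunits stood -0.37 from it, compared with -0.39 as deposited. The number called lower was then 2, Ndufa5 among them, and Ndufa8 was called higher. Of all 11643 tested genes 434 (3.73%) were then lower and 3901 higher. In pulldowns from whole tissue, fewer cells of a type and less RNA per cell cannot be told apart.

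Single libraries moved the count as well. Without chow replicate 3 the median of the subunits was -0.22, with 11 lower, 10 of them among the 14. Ndufa1, Ndufa9, Ndufb9 and Ndufb10 were lost and Ndufa10 was gained. Without HFD replicate 1, 7 subunits were called, and without HFD replicate 3, 8. The genes lost in both cases included Ndufa1, Ndufa2, Ndufa9, Ndufa13, Ndufb9 and Ndufb10. The summed level of the 36 subunits was 3323, 3562 and 4781 CPM in the chow libraries and 2566, 2963 and 2584 CPM in the HFD libraries, without overlap.

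**Figure D1:**
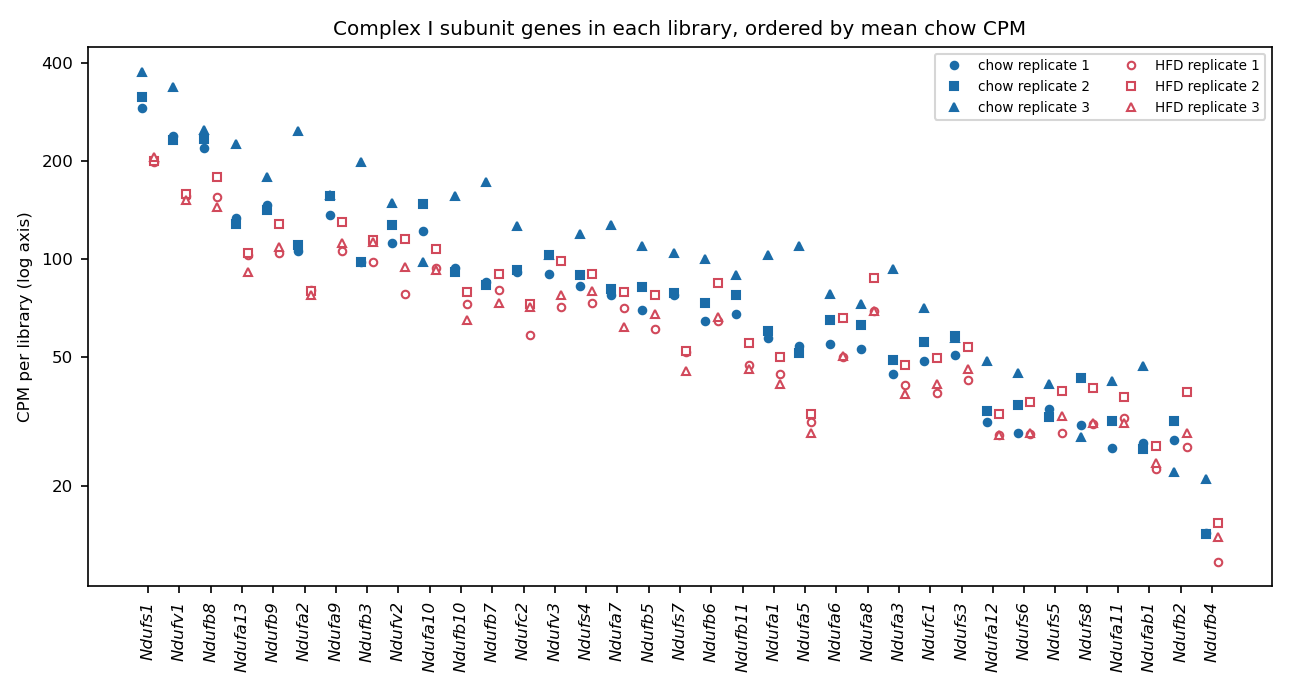
CPM of 35 subunit genes (horizontal axis, ordered by mean chow CPM, which is not scaled for transcript length) in the 3 chow libraries (filled blue) and the 3 HFD libraries (open red), on a log axis. Chow replicate 3 (filled triangles) is the highest chow library for 30 of the genes drawn, and 13 have every HFD library below every chow library.

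Markers of other cell types were measured beside these genes. For comparison with the counts below, 16.0% of all tested genes fell and 19.1% rose. Of 17 macrophage markers 15 rose and 1 (Cd14) fell, and their summed level was 193 to 217 CPM in chow and 565 to 786 CPM in HFD. Of 10 endothelial markers 9 rose (summed, 30.03 to 81.5 CPM in chow, then 150 to 291 CPM in HFD), as did 8 of 8 smooth muscle and pericyte markers (105 to 138 CPM, then 684 to 990 CPM). Of 10 fibroblast and progenitor markers 3 rose and 1 fell (1914 to 2871 CPM, then 1464 to 2971 CPM), and of 6 mesothelial markers 2 rose (18.6 to 30.5 CPM, then 40.9 to 132 CPM). Of 26 adipocyte identity genes 11 fell and 4 rose, and their sum was 47138 to 71919 CPM in chow and 40602 to 46076 CPM in HFD. The defining adipocyte gene Adipoq was present in every library, at 1978, 2062 and 2740.1 CPM in the chow libraries and 1541, 1585 and 1305 CPM in the HFD libraries. Adipoq itself fell by 0.60 (SE 0.18, limma adjusted p 0.0254), without overlap. None of the markers counted here was at 0 in every library, though the mesothelial marker Krt8 was at 0.00867 CPM, under 1 read, in chow replicate 3. The chosen markers Cidea, Mest and Cnn1 were not among the listed genes, so markers without reads may be missing from these counts. The part of other cells in the complex I result was not tested.

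The N module binds NADH. Ndufv1, the core subunit that holds the flavin, measured 239, 232 and 338 CPM in the chow libraries and 156, 159 and 152 CPM in the HFD libraries. Its HFD libraries lay close together and below all chow libraries, and the gene fell by 0.77 on the log2 scale (SE 0.16, limma adjusted p 0.00507). Ndufs1, the core subunit with several iron-sulphur clusters, measured 292, 315 and 377 CPM in the chow libraries and 198, 201 and 206 CPM in the HFD libraries. It fell by 0.69 (SE 0.13, adjusted p 0.00338), again without overlap. Ndufv2, the remaining core subunit of the module, which carries a cluster next to the flavin, measured 112, 127 and 149 CPM in the chow libraries and 78.2, 115 and 94.4 CPM in the HFD libraries. HFD replicate 2 lay above chow replicate 1, and the difference of -0.44 (95% interval -0.81 to -0.06, adjusted p 0.0716) did not pass.

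Of the accessory genes of the N module only Ndufa2 was called. It measured 106, 111 and 247 CPM in the chow libraries and 80.4, 79.9 and 77.7 CPM in the HFD libraries, so that chow replicate 3 was 2.28 times the other chow libraries and the 3 HFD libraries were nearly level. The log2 fold change was -0.84 (SE 0.28, adjusted p 0.0425), and -0.45 without chow replicate 3 (adjusted p 0.0141). The span of Ndufa2 overlaps that of Tmco6, which itself fell by 1.33 (adjusted p 0.00109), and whether their exons overlap was not checked. Ndufs4, an accessory subunit whose loss in mice serves as a model of Leigh syndrome, measured 82.7, 89.3 and 119 CPM under chow against 73.0, 89.9 and 79.9 CPM under HFD and did not pass (-0.25, 95% interval -0.61 to 0.11, and -0.09 without chow replicate 3). Its libraries overlapped, as did those of Ndufv3, Ndufs6, Ndufa6, Ndufa7 and Ndufa12, whose log2 fold changes ran from -0.40 (Ndufa7) to -0.19 (Ndufs6). Without chow replicate 3 these 5 ran from -0.23 (Ndufv3) to -0.04 (Ndufs6). In all 3 of 10 genes of the N module fell, with a median of -0.35 that was -0.20 without chow replicate 3 and 0.06 with the identity genes held level.

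The Q module, where ubiquinone is reduced, had 3 of 5 genes lower and a median of -0.78 (-0.65 without chow replicate 3), the lowest among the module lists. Ndufs7, the core subunit with the last iron-sulphur cluster before ubiquinone, measured 77.7, 78.8 and 104 CPM in the chow libraries and 51.6, 52.0 and 45.3 CPM in the HFD libraries and fell by 0.78 (SE 0.15, adjusted p 0.0035). Every HFD library lay below every chow library.

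Ndufa5, an accessory subunit of the Q module, had the lowest log2 fold change of the 36 subunits. It measured 53.8, 51.3 and 109.9 CPM in the chow libraries and 31.6, 33.4 and 29.2 CPM in the HFD libraries, without overlap, and chow replicate 3 was 2.09 times the other chow libraries. The change was -1.08 with all libraries (95% interval -1.66 to -0.49, adjusted p 0.0111) and -0.73 without that library (adjusted p 0.00431). The gene was called in all 15 alternative settings, with log2 fold changes from -1.27 to -0.67.

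Ndufs3 and Ndufs8, core genes of the Q module, did not pass. Ndufs3 measured 50.6, 58.1 and 57.3 CPM under chow against 42.5, 53.4 and 45.9 CPM under HFD (log2 fold change -0.23, 95% interval -0.53 to 0.08, adjusted p 0.23). Ndufs8, which binds iron-sulphur clusters, measured 30.9, 43.1 and 28.2 CPM under chow against 31.1, 40.2 and 31.3 CPM under HFD (0.02, 95% interval -0.40 to 0.44, adjusted p 0.948). The diets overlapped for both genes, and the value for Ndufs8 was -0.10 without chow replicate 3. Over both modules 4 of the 7 core subunits fell, with a median of -0.69 that was -0.59 without chow replicate 3. Of the 29 accessory subunits 10 fell, with a median of -0.37 that was -0.14 without chow replicate 3 (7 lower) and 0.05 with the identity genes held level. Without HFD replicate 1, 2 or 3 the number of lower accessory genes was 3, 6 or 4. Of all tested genes 12.6%, 10.7% and 9.98%, respectively, were lower in these fits. The difference between core and accessory genes was not tested.

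**Figure D2:**
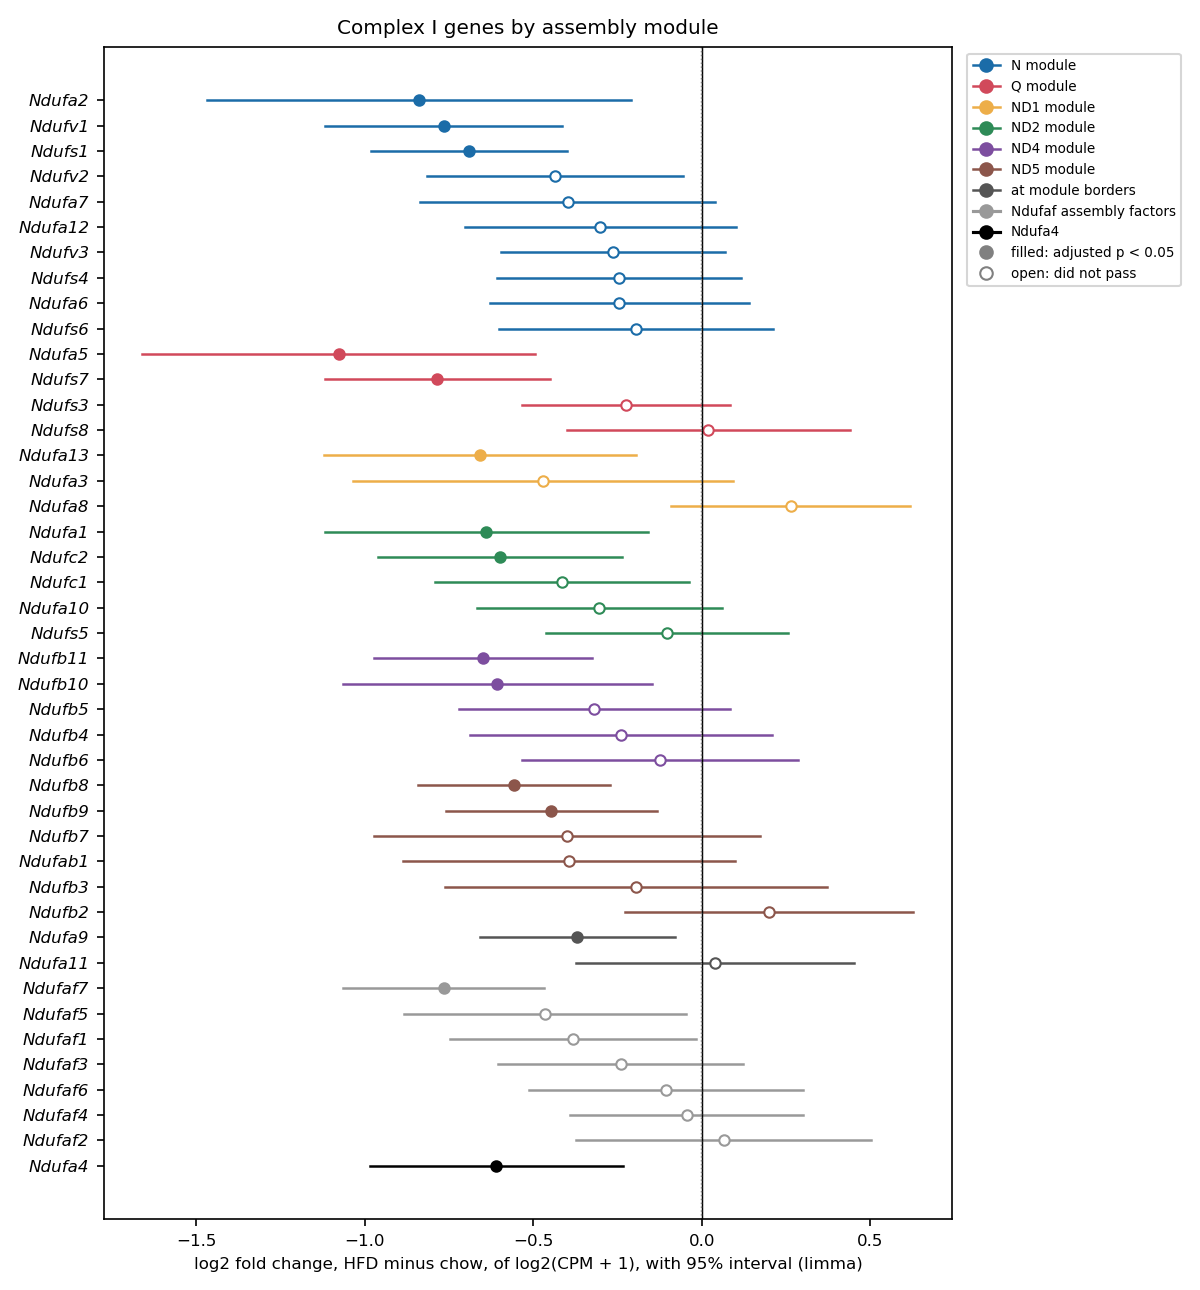
Log2 fold change, HFD minus chow, with its 95% interval from limma, for 35 subunits, the Ndufaf genes and Ndufa4, coloured by module. Filled points passed an adjusted p of 0.05, the solid line is at 0 and the dotted line, nearly on it, is the median of all tested genes. Values run from -1.08 for Ndufa5 to 0.26 for Ndufa8. With the identity genes held level 16 of the subunits drawn below 0 lie above it, where the median of all tested genes is 0.39.

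In the ND1 module, beside the ubiquinone pocket, 1 of 3 genes fell, with a median of -0.47 (-0.14 without chow replicate 3). Ndufa13, also known as GRIM-19, measured 133, 128 and 226 CPM in the chow libraries and 103, 104 and 91.1 CPM in the HFD libraries without overlap. Its log2 fold change was -0.66 (SE 0.21, adjusted p 0.0335), and -0.40 without chow replicate 3 (adjusted p 0.029). Ndufa3 measured 44.3, 48.8 and 93.1 CPM under chow against 41.1, 47.2 and 38.3 CPM under HFD and did not pass (-0.47, adjusted p 0.173). Chow replicate 3 was 2.00 times the other chow libraries for Ndufa3, and the difference without it was -0.14. Ndufa8, which faces the intermembrane space, measured 52.7, 62.7 and 72.5 CPM under chow against 69.1, 87.4 and 69.1 CPM under HFD. Its log2 fold change of 0.26 (95% interval -0.09 to 0.62, adjusted p 0.226) was the highest of the 36 subunits and did not pass with the deposited scaling. Its HFD replicates 1 and 3 lay below chow replicate 3.

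In the ND2 module 2 of 5 genes fell, with a median of -0.42 (-0.37 without chow replicate 3). Ndufa1, a small X-linked subunit, measured 57.3, 60.1 and 103 CPM in the chow libraries and 44.3, 49.9 and 41.4 CPM in the HFD libraries. It fell by 0.64 (SE 0.21, adjusted p 0.0429) but was not called without chow replicate 3 (-0.37, adjusted p 0.0548). Ndufc2 measured 91.1, 92.4 and 126 CPM in the chow libraries and 58.5, 72.5 and 71.0 CPM in the HFD libraries and fell by 0.60 (SE 0.16, adjusted p 0.0179). The diets did not overlap for either gene, and Ndufc2 was not called without HFD replicate 1.

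Ndufa10, which resembles nucleoside kinases, was one of 3 subunits that were lower in chow replicate 3 than in the other chow libraries. It measured 122, 148 and 97.7 CPM under chow against 93.7, 108 and 92.4 CPM under HFD, with HFD replicate 2 above chow replicate 3. The difference was -0.30 (adjusted p 0.174) with all libraries and -0.46 without chow replicate 3 (adjusted p 0.0334), the only alternative in which it was called. Ndufc1 (-0.42, adjusted p 0.083) and Ndufs5 (-0.10, adjusted p 0.644) did not pass, and their libraries overlapped. Without chow replicate 3 they lay at -0.27 and -0.01.

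The ND4 and ND5 modules form the outer membrane arm. In the ND4 module 2 of 5 genes fell, with a median of -0.32 that was -0.14 without chow replicate 3 and 0.10 with the identity genes held level. Ndufb11, also X-linked, measured 67.6, 77.7 and 89.3 CPM in the chow libraries and 47.2, 54.9 and 45.9 CPM in the HFD libraries and fell by 0.65 (SE 0.14, adjusted p 0.00771). Its span overlaps Rbm10, which did not pass (-0.20, adjusted p 0.415). Ndufb10 measured 93.7, 91.1 and 156 CPM in the chow libraries and 72.5, 79.3 and 64.9 CPM in the HFD libraries and fell by 0.61 (SE 0.20, adjusted p 0.0443), but was not called without chow replicate 3 (-0.36, adjusted p 0.0587). All HFD libraries lay below all chow libraries for both. Ndufb6 was the highest of the module (-0.13, adjusted p 0.624), and Ndufb4 and Ndufb5 lay at -0.24 and -0.32. None of the 3 passed, and without chow replicate 3 Ndufb6, Ndufb4 and Ndufb5 lay at 0.05, -0.06 and -0.14.

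In the ND5 module 2 of 6 genes fell, with a median of -0.40 that was -0.09 without chow replicate 3 and 0.01 with the identity genes held level. Ndufb8, whose protein is often used as a marker of assembled complex I, measured 219.8, 234 and 249 CPM in the chow libraries and 155, 179 and 144 CPM in the HFD libraries. It fell by 0.56 (SE 0.13, adjusted p 0.00855). Chow replicate 3 was 1.10 times the other chow libraries here, and without it the value was -0.51 (adjusted p 0.0175). Ndufb9, a partner of the acyl carrier protein, measured 147, 141 and 179 CPM in the chow libraries and 104, 128 and 109 CPM in the HFD libraries and fell by 0.45 (SE 0.14, adjusted p 0.0336), but was not called without that library (-0.34, adjusted p 0.0666). Neither gene had overlapping libraries.

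The 4 other genes of the ND5 module overlapped between diets and did not pass. Ndufab1, the mitochondrial acyl carrier protein, measured 27.1, 26.0 and 46.9 CPM under chow against 22.6, 26.5 and 23.6 CPM under HFD (-0.39, adjusted p 0.192), and differed by -0.13 without chow replicate 3 (adjusted p 0.491). Ndufb3 measured 97.7, 97.7 and 199 CPM under chow against 97.7, 115 and 113 CPM under HFD, and its difference was -0.20 with chow replicate 3 and 0.15 without it. Ndufb7 likewise went from -0.40 to -0.06, so that chow replicate 3 held most of the difference for Ndufab1 and Ndufb7, and the sign of Ndufb3 turned without it. Ndufb2 measured 27.7, 31.8 and 22.2 CPM under chow against 26.4, 38.9 and 29.2 CPM under HFD and was the highest of the module (0.20, 95% interval -0.23 to 0.63, and 0.07 without chow replicate 3).

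Of the 2 subunits at borders between modules, Ndufa9, near the junction of the peripheral and membrane arms, measured 136, 156 and 158 CPM in the chow libraries and 106, 129.8 and 112 CPM in the HFD libraries. It passed narrowly (-0.37, SE 0.13, adjusted p 0.0498) and in 5 of 15 alternative settings, and lay at 0.05 with the identity genes held level. Without chow replicate 3 it was not called (-0.33, adjusted p 0.0836). Ndufa11 measured 26.2, 31.8 and 42.2 CPM under chow against 32.4, 37.5 and 31.3 CPM under HFD, with overlapping libraries (0.04, 95% interval -0.38 to 0.45, adjusted p 0.89, and 0.22 without chow replicate 3).

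**Figure D3:**
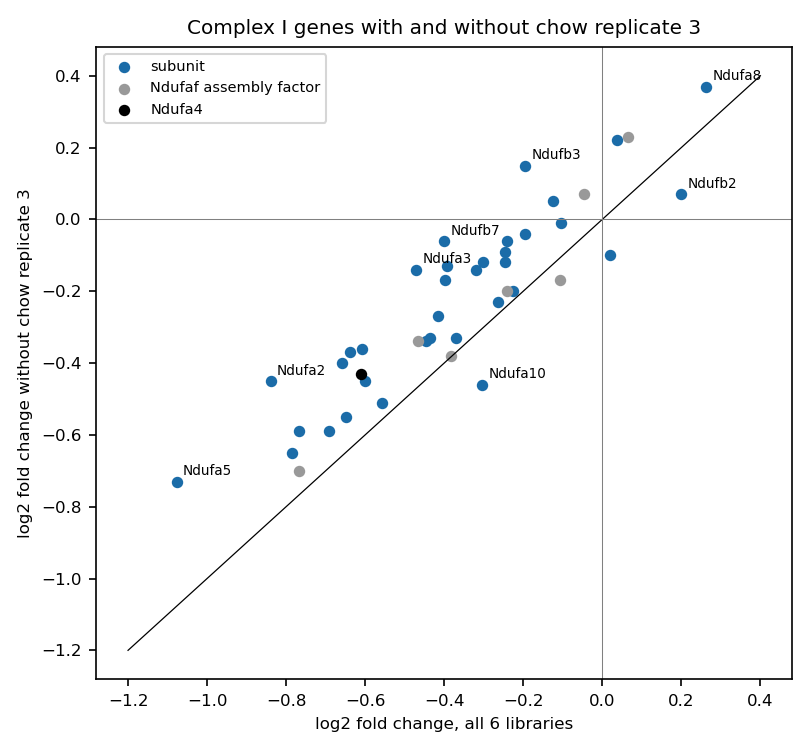
Log2 fold change, HFD minus chow, of 35 subunits, the Ndufaf genes and Ndufa4 with all 6 libraries (horizontal axis) and without chow replicate 3 (vertical axis), where the diagonal marks equal values. Most points lie above the diagonal: Ndufa5 moves from -1.08 to -0.73 and Ndufb3 from -0.20 to 0.15, whereas Ndufa10 and Ndufs8 lie below it.

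Assembly factors build the enzyme without being part of it. Of the 7 Ndufaf genes 1 fell and 0 rose, a share near the 16.0% of all tested genes that were lower. Their median was -0.24, and 0.16 with the identity genes held level. The one that fell was Ndufaf7, a methyltransferase that acts early in assembly. It measured 35.8, 37.3 and 41.6 CPM in the chow libraries and 21.6, 22.2 and 22.3 CPM in the HFD libraries, with both diets tightly grouped and well apart. The fall was 0.77 (SE 0.13, adjusted p 0.00222), and without chow replicate 3 the value was -0.70 (adjusted p 0.00492).

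Of the other 6 Ndufaf genes, Ndufaf5 and Ndufaf1 had all HFD libraries below all chow libraries, which made 3 of 7 with Ndufaf7, where 25.0% of tested genes did so. Ndufaf5, which hydroxylates Ndufs7, measured 16.0, 17.8 and 22.3 CPM under chow against 12.3, 15.7 and 11.7 CPM under HFD (-0.47, adjusted p 0.0794). Ndufaf1, of the complex that assembles the membrane arm, measured 29.9, 37.8 and 33.6 CPM under chow against 21.7, 29.7 and 25.8 CPM under HFD (-0.38, adjusted p 0.0958). Neither passed, and each was called in 1 of 15 alternative settings. Ndufaf3 (-0.24, 95% interval -0.60 to 0.12) and Ndufaf4 (-0.05, -0.39 to 0.30), which work together on the Q module, overlapped between diets, as did Ndufaf6 (-0.11, -0.51 to 0.30). Without chow replicate 3 Ndufaf4 and Ndufaf6 lay at 0.07 and -0.17. Ndufaf2, a relative of the subunit Ndufa12 that acts late in assembly, measured 12.6, 11.7 and 17.8 CPM under chow against 12.6, 15.6 and 15.5 CPM under HFD (0.06, -0.37 to 0.50, and 0.23 without chow replicate 3).

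Of 9 assembly factor genes with other names 4 fell and 0 rose, where 16.0% of all tested genes fell. Their median was -0.38, and 0.04 with the identity genes held level. Nubpl, which is needed for the iron-sulphur clusters of complex I, had the lowest value (-0.68, adjusted p 0.0217). It was followed by Tmem186 (-0.47), Aifm1 (-0.46) and Ecsit (-0.45), the last a member of the same complex as Ndufaf1. Ecsit measured 37.5, 37.3 and 37.5 CPM under chow against 28.6, 28.2 and 24.8 CPM under HFD, with chow libraries that were nearly equal (adjusted p 0.0252). Tmem126b, of that same complex, was the highest and did not pass (0.35, adjusted p 0.126), so listed members of 1 assembly complex lay on both sides of 0.

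The 2 genes outside complex I are given apart. Ndufa4, now counted with complex IV, measured 199, 204 and 296 CPM in the chow libraries and 144, 164 and 142 CPM in the HFD libraries without overlap and fell by 0.61 (SE 0.17, adjusted p 0.0193). Its relative Ndufa4l2, a gene induced by hypoxia, was close to the limit of detection at 0.354, 0.349 and 0.683 CPM under chow against 1.56, 1.52 and 0.824 CPM under HFD, or 8, 11 and 5 reads in chow and 52, 48 and 32 reads in HFD. All HFD libraries lay above all chow libraries. Its mean was below the 1 CPM required for testing, and with every listed gene tested the log2 fold change was 0.64 (SE 0.28, adjusted p 0.101). Its span overlaps Shmt2, which averaged 14.0 CPM in chow and 13.6 CPM in HFD.

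Genes next to complex I in the chain are given for comparison, beside the 16.0% of all tested genes that fell. Of 9 genes for complex II and other enzymes that pass electrons to ubiquinone 7 fell, with a median of -0.68 (-0.72 without chow replicate 3). The lowest was Sqrdl, the sulphide oxidoreductase (-1.94, adjusted p 1e-05). Of 30 genes of complexes III, IV and V 15 fell (5 of 8, 4 of 10 and 6 of 12), with a median of -0.57 that was -0.35 without chow replicate 3. With the identity genes held level these medians were -0.28 and -0.15. Of 66 mitochondrial ribosomal protein genes 16 fell, with a median of -0.22 that was 0.19 under that scaling. None of these lists held a gene that rose, and the difference between complex I and these lists was not tested.

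**Figure D4:**
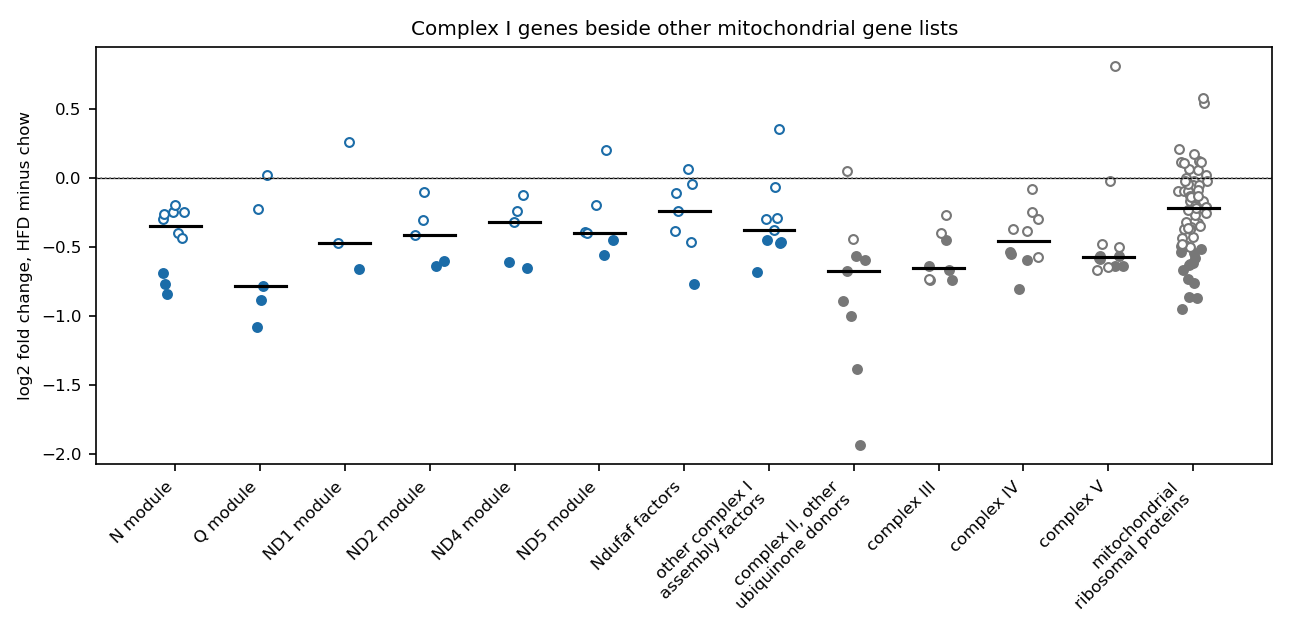
Log2 fold change, HFD minus chow, of single genes (points) in the complex I lists (blue) and in other mitochondrial lists (grey). Filled points passed an adjusted p of 0.05, bars are medians and the line is at 0. Medians of the complex I modules run from -0.78 (Q) to -0.32 (ND4). With the identity genes held level those of the N, ND4 and ND5 modules, both assembly factor lists and the mitochondrial ribosomal list are above 0. Under that scaling the median of all tested genes is 0.39.

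Complex I needs iron-sulphur clusters, which mitochondria make with their own machinery. Of 12 genes of that machinery 3 fell and 1 rose, where 16.0% of all tested genes fell and 19.1% rose. Their median was -0.29, and 0.11 with the identity genes held level. Iba57 (-0.75, adjusted p 0.0146), Isca1 (-0.75, adjusted p 0.00958) and the cysteine desulphurase gene Nfs1 (-0.57, adjusted p 0.0109) fell. Isca2, which works with Isca1 and Iba57, measured 46.2, 52.0 and 44.6 CPM in the chow libraries and 63.6, 86.8 and 63.1 CPM in the HFD libraries and rose by 0.56 (adjusted p 0.021). Isca1 and Isca2 thus moved in opposite directions, each without overlap between diets.

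Among regulators of mitochondrial genes 3 of 12 table entries fell and 0 rose, where 16.0% of all tested genes fell. Their median was -0.33, and 0.08 with the identity genes held level. The coactivator gene Ppargc1a measured 11.9, 9.71 and 6.32 CPM under chow against 4.17, 4.38 and 3.58 CPM under HFD (adjusted p 0.0121) and its relative Ppargc1b 12.3, 11.1 and 9.99 CPM and 6.23, 5.17 and 5.35 CPM (adjusted p 0.00581). Tfam, which packages mitochondrial DNA, was the third (-0.78, adjusted p 0.00481). All 3 had no overlap between diets. Of the genes on this list whose motifs were searched, none passed: Yy1 (-0.24, adjusted p 0.183), Nrf1 (-0.37, adjusted p 0.1), Esrra (-0.25, adjusted p 0.284), Gabpb1 (-0.11, adjusted p 0.702) and the 2 entries of Gabpa (-0.52, adjusted p 0.0575, and -0.34, adjusted p 0.0693). Yy1, Nrf1 and both Gabpa entries lay entirely below chow in HFD, as did 25.0% of tested genes, whereas Esrra and Gabpb1 overlapped.

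**Figure D5:**
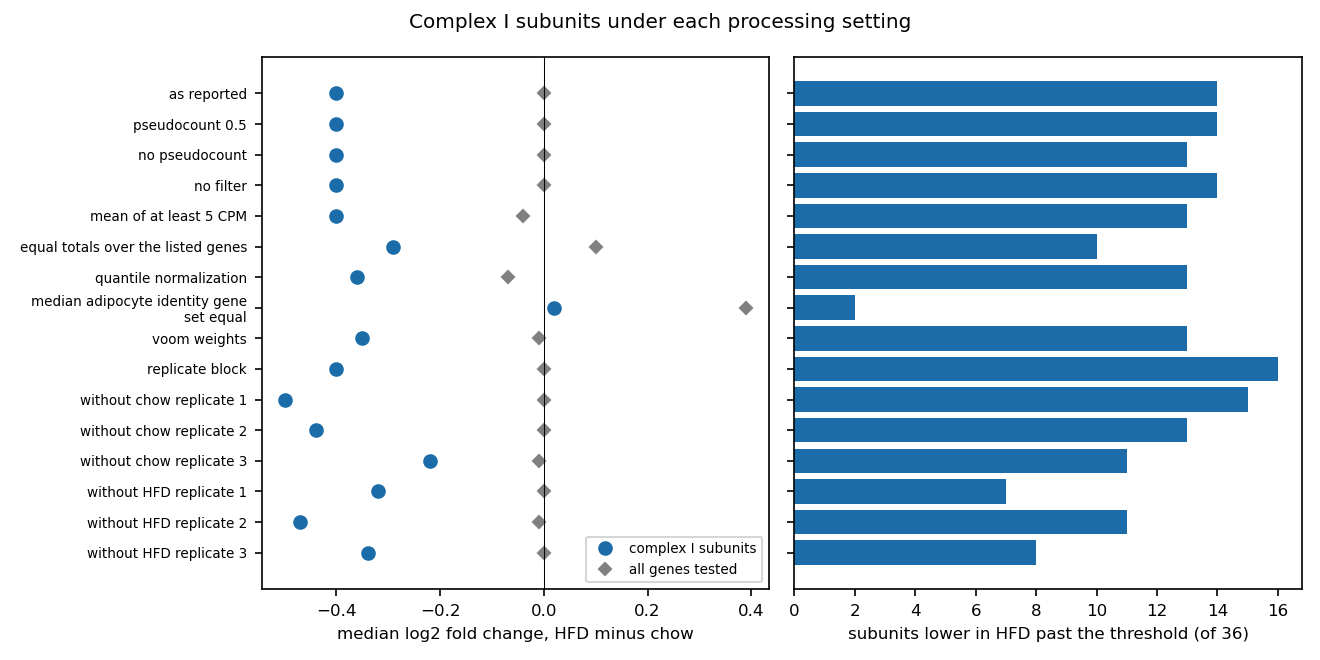
Left, median log2 fold change, HFD minus chow, of the 36 subunits (circles) and of all tested genes (diamonds) under each processing setting; right, number of subunits called lower. The subunits' median lies below that of all genes in each setting drawn, and the count runs from 2 (identity genes held level, subunit median 0.02) to 16 (replicate block). Of all tested genes 3.73% and 19.3%, respectively, were lower in these settings.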

How the data were processed

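The deposited values are log2 CPM per gene and library, 1 column per library, matched to samples by diet and replicate number (0 columns unmatched). HISAT2, Picard, featureCounts, edgeR and the build mm10 are named in the submitters' processing notes, with no versions. How the authors filtered low genes and which prior count they added is unknown here. Values were turned back into CPM. The log2(CPM + 1) of 11643 genes averaging 1 CPM or more (44 of the 45 Nduf genes) was compared between diets by limma 3.58.1 under R 4.3.3 (moderated with a mean-variance trend, two-sided, all libraries of both diets, no covariate). This scale understates changes of low genes. The script was tested on simulated data.

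Members, gene lists and the rule for named genes were chosen with earlier results of these data known. The rule took all core subunits, the lowest and highest gene of each module, every Ndufaf gene, Ndufa4, Ndufa4l2, subunits that rose, the 5 lowest subunits, and extremes among called genes of other lists. Other genes were named after their values were seen. Some results that the rule covers are not reported here. Effective library sizes came from the steps between low values, all of which (under 20 reads) were whole within 0.1 of a read. Of values of 1 to 8 reads 74.5% were even. Tested Nduf genes had at least 59 reads in every library. Alternatives were other pseudocounts, low-value filters and scalings, voom weights on recovered reads, a replicate block, and leaving out each library. The identity scaling shifts each library so that the median deviation of 26 adipocyte identity genes from their own means is the same in every library. Chromatin samples were not analysed here.

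RefSeq positions (GRCm38.p6) were found for all 45 symbols, on 16 chromosomes. Of these 4 overlap another listed gene, and 6 (Ndufab1, Ndufa11, Ndufa12, Ndufb4, Ndufs5 and Ndufs6) have a named copy or pseudogene with which reads may be shared. The library kit, per the labels' protocols, does not mark strand, so reads from overlapping exons cannot be told apart.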

Additional observations from a re-analysis of the deposited data

How the results depend on the processing

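Leaving out 1 library gave 7 (without HFD replicate 1) to 15 lower subunits and medians from -0.50 to -0.22. Lower genes overall went from 1863 to 1462 without HFD replicate 1, 1248 without HFD replicate 2 and 1162 without HFD replicate 3, with fewer samples in each fit. With the identity genes held level 2 subunits were lower and 1 higher, the medians were 0.02 for subunits and 0.16 for Ndufaf genes, and 0 Ndufaf genes were lower. Over all genes that scaling gave 3901 higher and 434 lower, equal totals 2513 and 1333, and the deposited scaling 2221 and 1863. Quantile normalization gave 2 lower Ndufaf genes and a median of -0.37.

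With the identity genes held level these genes lay above 0 and did not pass: Ndufb3 (0.22), Ndufa10 (0.11), Ndufs3 (0.19), Ndufaf1 (0.02), Ndufb5 (0.10), Ndufaf6 (0.27), Ndufaf4 (0.36), Ndufb6 (0.29), Ndufs5 (0.31), Ndufa9 (0.05), Ndufab1 (0.01), Ndufb7 (0.02), Ndufaf3 (0.16), Ndufa12 (0.11), Ndufs6 (0.21), Ndufs4 (0.17), Ndufa6 (0.17), Ndufb4 (0.15), Ndufv3 (0.15) and Ndufa7 (0.02). Medians of lists did so for other assembly factors (0.04), iron-sulphur cluster assembly (0.11), regulators (0.08), mitochondrial ribosomal proteins (0.19), the N (0.06), ND4 (0.10) and ND5 (0.01) modules, subunits at borders (0.25) and accessory subunits (0.05). The median of all tested genes under that scaling was 0.39, above each of these gene values and list medians. Signs of genes not called also changed for Ndufaf4 (0.06) and Ndufs5 (0.00) with equal totals, for Ndufaf2 (-0.07) and Ndufs8 (-0.01) after quantile normalization, and for Ndufs8 (-0.05) with voom weights. Over the fits that left out 1 library Ndufb3 ran from -0.37 to 0.15, Ndufaf4 from -0.14 to 0.07, Ndufb6 from -0.26 to 0.05, Ndufaf2 from -0.05 to 0.23, Ndufa11 from -0.12 to 0.22 and Ndufs8 from -0.10 to 0.20. Beyond the construction of each setting, the cause was not tested.

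Replicate numbers recur in both diets, and the main fit did not use them. Deviations of same-numbered libraries from their diet's mean correlated at 0.43, 0.23 and 0.09. Those of differently numbered libraries ran from -0.39 to 0.15. The same number gave the best match for chow replicates 1 and 2, whereas chow replicate 3 correlated best with HFD replicate 2, at 0.15. Whether the numbers mark pairs or a batch was not tested. With the replicate block 16 subunits were lower, adding Ndufc1 and Ndufv2, and 2 Ndufaf genes.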
